A study of Mus musculus with 9 samples.

Results

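Complement and coagulation genes encode the protease cascades of the plasma, most of which are made by the liver. A list of 38 such genes was taken by symbol, and the probe set with the highest mean signal stood for each gene. Of the 38, 36 had a probe set annotated to their symbol alone, out of 18194 genes with such a probe set among the 45101 probe sets of the arrays. C3, the central complement component, had none in the annotation used, and the probe set of C4b is shared with C4a, so the expression of neither gene was analysed here.

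The livers came from female MRL +/+ mice, a lupus-prone strain, aged 11 weeks. Mice received intraperitoneal injections 2 times a week for 6 weeks of dichloroacetyl chloride (DCAC) or dichloroacetic anhydride (DCAA), each at 0.2 mmol/kg in 100 µl of corn oil, or of corn oil alone, and were killed 24 h after the final injection. DCAC is an acyl chloride and DCAA an acid anhydride, and both carry the same dichloroacetyl group. There were 3 mice in each of the 3 groups and 1 array per mouse. The sample labels call the control mice untreated, while the design text gives them corn oil. Every group, controls included, carries the MRL background, and no group of another strain or without injections was analysed here. The tissue was whole liver, in which fewer cells of a type and less RNA per cell cannot be told apart.

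Complement is set off by antibody, by sugar patterns bound by mannose-binding lectins, or by spontaneous turnover of C3. Convertases then cut C3 and C5, and the terminal components assemble into a pore in the target membrane. Coagulation proceeds from tissue factor or the contact system to thrombin, which turns fibrinogen into fibrin, and plasmin dissolves the clot. Hepatocytes make most of these proteins, and several of them, fibrinogen among them, are known as acute phase proteins that follow inflammatory cytokines.

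The promoters below are those of the terminal pathway genes on which the results turn and of Fgb, which encodes the fibrinogen beta chain. C8a and C9 had the largest differences between treated and control livers, C8b lies next to C8a with no protein-coding gene between them, C6 stood lowest with DCAC, and Fgb carries a match to 3 of the motifs searched. Each line gives the 250 bases before the gene's start, 5′ to 3′, from RefSeq (GRCm38.p6), with motif matches that lie wholly within these bases in capitals.
C8a (chr4:104876399-104876648, minus strand): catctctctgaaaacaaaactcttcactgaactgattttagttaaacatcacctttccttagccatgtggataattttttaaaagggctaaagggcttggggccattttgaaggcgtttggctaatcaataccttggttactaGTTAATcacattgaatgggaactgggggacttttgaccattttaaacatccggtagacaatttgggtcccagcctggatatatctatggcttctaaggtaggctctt
C8b (chr4:104766067-104766316, plus strand): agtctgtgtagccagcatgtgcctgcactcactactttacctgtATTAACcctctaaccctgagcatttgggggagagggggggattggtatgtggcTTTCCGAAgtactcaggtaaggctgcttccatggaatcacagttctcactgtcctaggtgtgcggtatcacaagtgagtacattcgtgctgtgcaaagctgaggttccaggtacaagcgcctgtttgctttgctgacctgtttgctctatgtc
C9 (chr15:6445096-6445345, plus strand): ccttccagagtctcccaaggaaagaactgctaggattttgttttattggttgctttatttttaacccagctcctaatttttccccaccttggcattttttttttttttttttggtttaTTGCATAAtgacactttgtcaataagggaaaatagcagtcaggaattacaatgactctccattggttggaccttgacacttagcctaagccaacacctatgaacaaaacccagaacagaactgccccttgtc
C6 (chr15:4726960-4727209, plus strand): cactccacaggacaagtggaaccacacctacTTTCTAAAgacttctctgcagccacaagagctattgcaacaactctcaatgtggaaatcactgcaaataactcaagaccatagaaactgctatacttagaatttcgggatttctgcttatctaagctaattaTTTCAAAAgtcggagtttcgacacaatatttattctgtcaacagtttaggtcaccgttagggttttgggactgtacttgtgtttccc
Fgb (chr3:83049864-83050113, minus strand): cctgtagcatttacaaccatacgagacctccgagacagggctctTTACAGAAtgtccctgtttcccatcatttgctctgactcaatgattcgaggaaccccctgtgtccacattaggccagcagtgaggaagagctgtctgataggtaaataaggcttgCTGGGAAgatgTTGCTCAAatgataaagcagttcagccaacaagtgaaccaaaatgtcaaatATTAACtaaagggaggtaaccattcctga

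The motifs were CTGGGAA (the STAT3 type II element of acute phase genes), TTNNGNAA (C/EBP family), GTTAAT (1 arm of the HNF1 site), the full HNF1 site and CAAAGTCCA (HNF4), searched on both strands from 250 bases before to 50 after the start. In the capitals, C8a holds GTTAAT at -107. C8b holds the HNF1 match on the other strand at -206 and a C/EBP match at -153. C9 holds a C/EBP match at -132. C6 holds C/EBP matches at -219 and -87, and a STAT3 match that begins at -5 and runs past the start. Fgb holds CTGGGAA at -91, C/EBP matches at -206 and -80, and the HNF1 match at -29 on the other strand. RefSeq promoters were at hand for 29 of the 38 genes, C3 among them. CTGGGAA was present in 6 of the 29 (20.7%), against 12.7% of all 27025 genes with a promoter. TTNNGNAA was present in 17 (58.6% against 44.1%), and GTTAAT in 9 (31.0% against 8.24%). Neither the full HNF1 site nor CAAAGTCCA occurred in the 29, and their shares among all genes were 0.0111% and 0.555%. These are matches of letters, not shown to be bound sites.

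The array labelled control 2 stood apart from the other 8. All 14 nephron genes with a probe set (kidney tubule and glomerulus markers such as Umod and Slc34a1) were above every other array there, with a summed signal of 175917.9 against 1955.4 to 3190.7. Of 12 hepatocyte markers, 11 were below every other array, with a summed signal of 26142.9 against 428893.9 to 613532. Fgb was under the floor of control 2, a signal of 59.8 (the 25th percentile of that array), and read 44848 to 60761 on the others. Control 2 had a median Spearman correlation of 0.806 with the rest, while pairs of the other 8 ranged from 0.859 to 0.929. The comparisons therefore used the 8 arrays without control 2, with 2 controls, and its values are given apart. With control 2 included, the median log2 difference of the 36 genes was 2.25 with DCAC and 2.22 with DCAA. None of the 36 then passed the test, and over all probe sets 0 were called with either compound. The small number of arrays limits the precision, and p-values measure the spread between these mice.

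No complement or coagulation gene passed the test in any comparison. Their differences nonetheless lay mostly on 1 side: the log2 difference from control was above 0 for 35 of 36 genes with DCAC and for 35 of 36 with DCAA, where 46.2% and 49.2% of the 24531 probe sets tested lay above 0. The median gene stood 0.28 higher on the log2 scale with DCAC and 0.36 higher with DCAA, while the median of all probe sets tested was -0.03 and -0.01. The gene below 0 was C6 with DCAC and Klkb1 with DCAA. By limma with Benjamini-Hochberg adjustment over all probe sets, the smallest adjusted p was 0.523 with DCAC and 0.0850 with DCAA, both for C8a. Of all probe sets, 0.0326% were called higher with DCAC and 0.0693% with DCAA at an adjusted p under 0.05, and 0% and 0.0122% were called lower. At an unadjusted p under 0.05, 12 of the 36 were higher with DCAC (2.47% of all probe sets) and 18 with DCAA (6.3%), and none was lower (2.55% and 6.28%). With both compounds taken as 1 treated group of 6 livers, 35 of 36 genes lay above 0 (46.7% of all probe sets) and none passed (0.0734% called higher), and at an unadjusted p under 0.05, 19 were higher (4.13%) and none was lower (3.09%). The sizes were moderate, since no gene of the 36 had a log2 difference above 0.66 with DCAC or 0.89 with DCAA. Both comparisons share the same 2 controls, so their likeness is not independent. A shift to 1 side was not particular to the 36 genes. Of the 12 hepatocyte markers tested, 10 lay above 0 with DCAC and 11 with DCAA. The 99th percentile of signal was 12864 and 13173 in the controls and 13185 to 15326 in the treated livers. The part of such a shift of strong signals in these values was not tested.

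By range, 22 of the 36 genes had all 3 DCAC livers above both controls, where 11.2% of all probe sets did. With DCAA the count was 29 of 36, where 16.2% of all probe sets did. Of the 12 hepatocyte markers tested, 1 did so with DCAC and 8 with DCAA. None of the 36 had all DCAC livers or all DCAA livers below both controls, where 12.5% and 15.6% of all probe sets did. In 19 genes all 6 treated livers were above both controls, where 5.18% of all probe sets were, and in none were all 6 below (5.4%). Quantile normalization gives all arrays 1 distribution. With it, the counts of the 36 above both controls were 12 (DCAC), 18 (DCAA) and 10 (all 6 treated), and 1, 2 and 1 were below both. The shares of all probe sets were not counted with this normalization. The genes above 0 then numbered 28 with DCAC and 29 with DCAA, and the medians were 0.12 and 0.18.

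**Figure D1:**
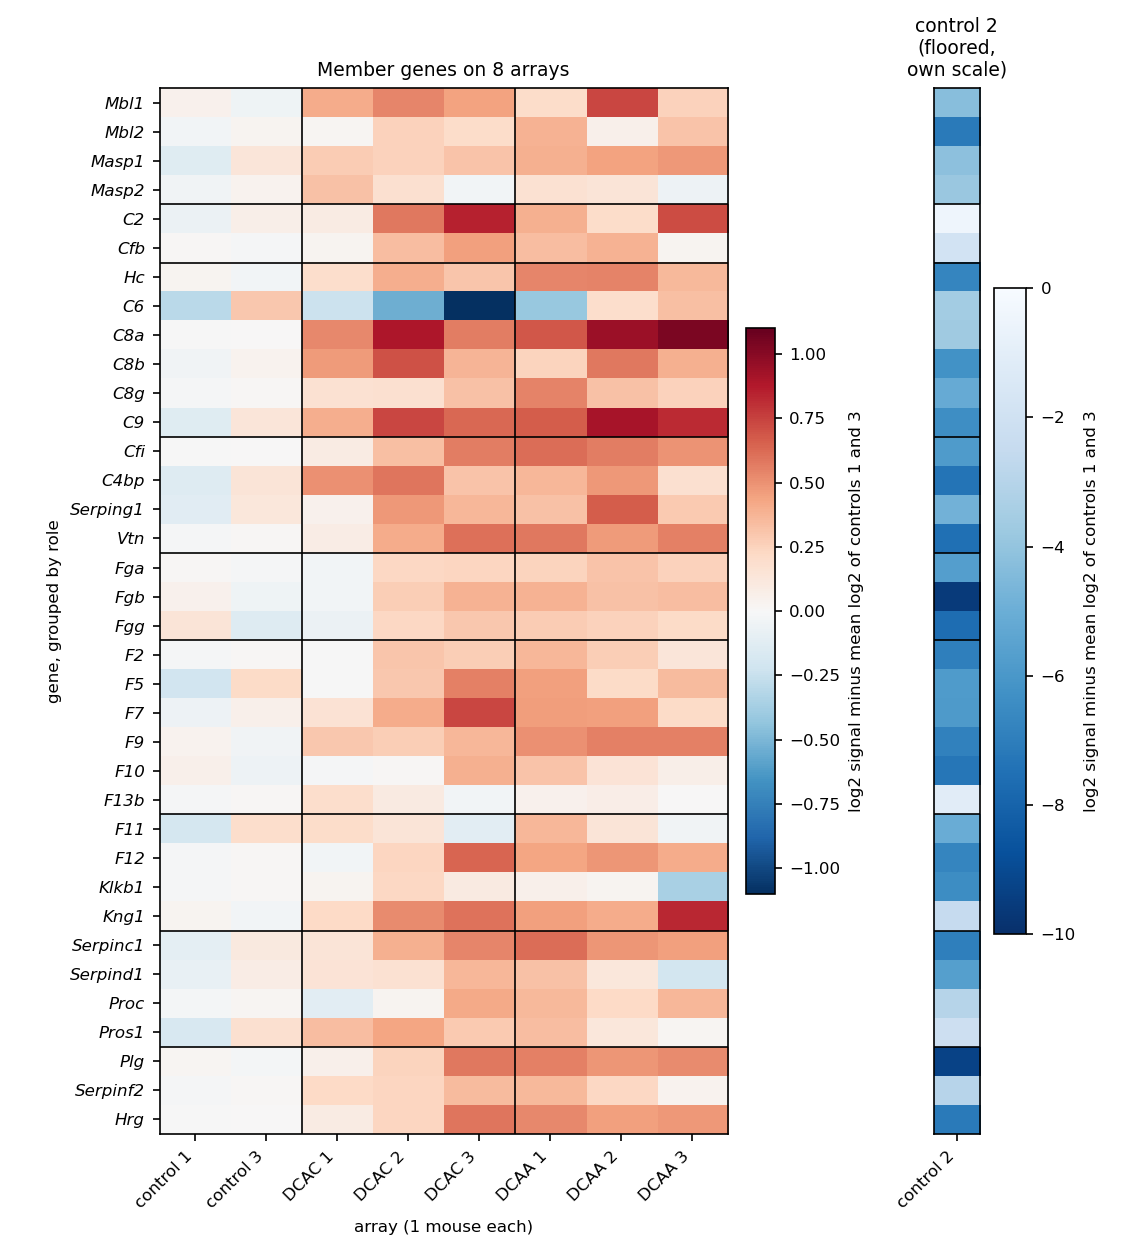
Log2 signal of the 36 genes (rows, grouped by role, with lines between roles) on 8 arrays (columns), each minus the gene's mean over controls 1 and 3, with control 2, values under its floor set to the floor, in a column of its own on a scale of its own. Most cells of the 6 treated livers are red (above the controls), C6 is blue on DCAC 1 to 3 and DCAA 1, and control 2 is far below the controls for most genes.

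The individual livers differed in how far they stood from the controls. Each gene was set against its mean over the 8 arrays, and the median over the genes was taken. This median was -0.28 on control 1 and -0.21 on control 3. It was -0.13, 0.07 and 0.12 on DCAC 1, 2 and 3, and 0.16, 0.14 and 0.08 on DCAA 1, 2 and 3. Every treated liver was thus above both controls, and DCAC 1 lay nearest to them. DCAC 1 was the lowest of the 6 treated livers for 22 of the 36 genes. Genes above both controls numbered 25, 33 and 32 in the DCAC livers 1, 2 and 3 and 35, 33 and 30 in the DCAA livers. Of all probe sets tested, 34.1%, 34.5% and 35.1% lay above both controls on the DCAC arrays and 35.6%, 37.7% and 43.5% on the DCAA arrays.

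A measure of labelling quality differed between the arrays as well. The 3′/5′ signal ratio of the pyruvate carboxylase control probe sets was 3.93 and 3.32 in the controls. It was 2.85, 3.99 and 12.8 in DCAC 1, 2 and 3, and 6.43, 8.38 and 10.9 in the DCAA livers. All DCAA livers and DCAC 3 were thus above both controls in this ratio, while DCAC 1 and 2 were near them. Within the arrays of low ratio, the median gene stood 0.20 higher in DCAC 1 and 2 than in the controls, and 34 of 36 genes were above 0. No control shares a ratio class with a DCAA liver. With the class as a block, which ties DCAA to the controls only through DCAC 3, the DCAA median was 0.19 and 27 genes were above 0. The part of this ratio in the differences was not tested further.

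**Figure D2:**
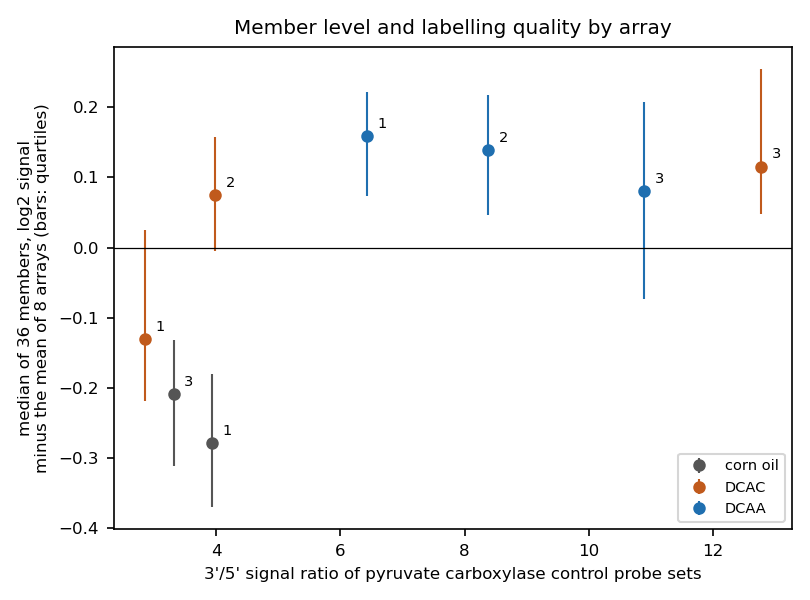
Median over the 36 genes of log2 signal minus each gene's mean over 8 arrays (vertical axis, bars are quartiles over genes) against the 3′/5′ signal ratio of pyruvate carboxylase control probe sets (horizontal axis), 1 point per array with its replicate number. Both controls, at -0.28 and -0.21, lie at ratios of 3.93 and 3.32, and DCAC 2, at 0.07, has a ratio of 3.99.

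The terminal pathway, whose proteins form the membrane attack complex, held the genes of the largest differences. Of its 6 genes, 5 had all treated livers above both controls, as did 19 of the 36 genes and 5.18% of all probe sets. The median log2 difference of the 6 was 0.41 with DCAC and 0.44 with DCAA. C8a encodes the alpha chain of C8, which inserts into the membrane. Its signal was 10523 and 10524 in the controls, 15184, 19478 and 15515.5 with DCAC, and 16934, 20236.5 and 21614 with DCAA. The 2 controls were nearly equal, and the lowest treated liver was well above them. The log2 difference was 0.66 with DCAC (1.58-fold; SE 0.16; limma adjusted p = 0.523) and 0.89 with DCAA (1.85-fold; SE 0.16; limma adjusted p = 0.0850). C8a passed with DCAA when arrays were weighted by their quality (limma adjusted p = 0.0246) and when DCAA 1 was left out (0.0344). Over all probe sets, calls with DCAA numbered 141 with array weights and 87 without DCAA 1, against 20 in the main fit.

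C9 encodes the component that polymerizes into the ring of the pore. Its signal was 16152 and 19497 in the controls, 23380, 29560 and 27542 with DCAC, and 28107, 33274 and 31427 with DCAA. No treated liver overlapped the controls, although the controls differed from each other more than for C8a. The log2 difference was 0.59 with DCAC (SE 0.16; limma adjusted p = 0.602) and 0.80 with DCAA (1.74-fold; SE 0.16; limma adjusted p = 0.105), and with array weights the latter adjusted p was 0.0314. C8b encodes the C8 beta chain and had signals of 4356 and 4577 in the controls, 6171, 7248 and 5785 with DCAC and 5295, 6668 and 5850 with DCAA. Its log2 difference was 0.51 with DCAC and 0.40 with DCAA, an order opposite to that of C8a. Hc encodes C5, whose fragments start the pore and attract leukocytes. Its signal was 14457 and 13896 in the controls, 16195, 18693 and 17490 with DCAC, and 20508, 20686.5 and 18138 with DCAA, and its log2 difference was 0.30 and 0.48. C8g, for the small gamma chain of C8, was at 0.22 and 0.38.

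C6, which joins C5b at the start of pore assembly, was the exception in this group. Its signal was 580 and 874 in the controls, 604, 491 and 330 with DCAC, and 534, 816.5 and 893 with DCAA. The controls spanned a wide range and overlapped both treated groups. The log2 difference was -0.63 with DCAC (95% interval -1.30 to 0.04; limma adjusted p = 0.967) and 0.04 with DCAA (-0.63 to 0.71; limma adjusted p = 0.973). C6 also had the largest coefficient of variation of the 36 genes in each group, at 28.7% in the controls, 29.0% with DCAC and 25.3% with DCAA.

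**Figure D3:**
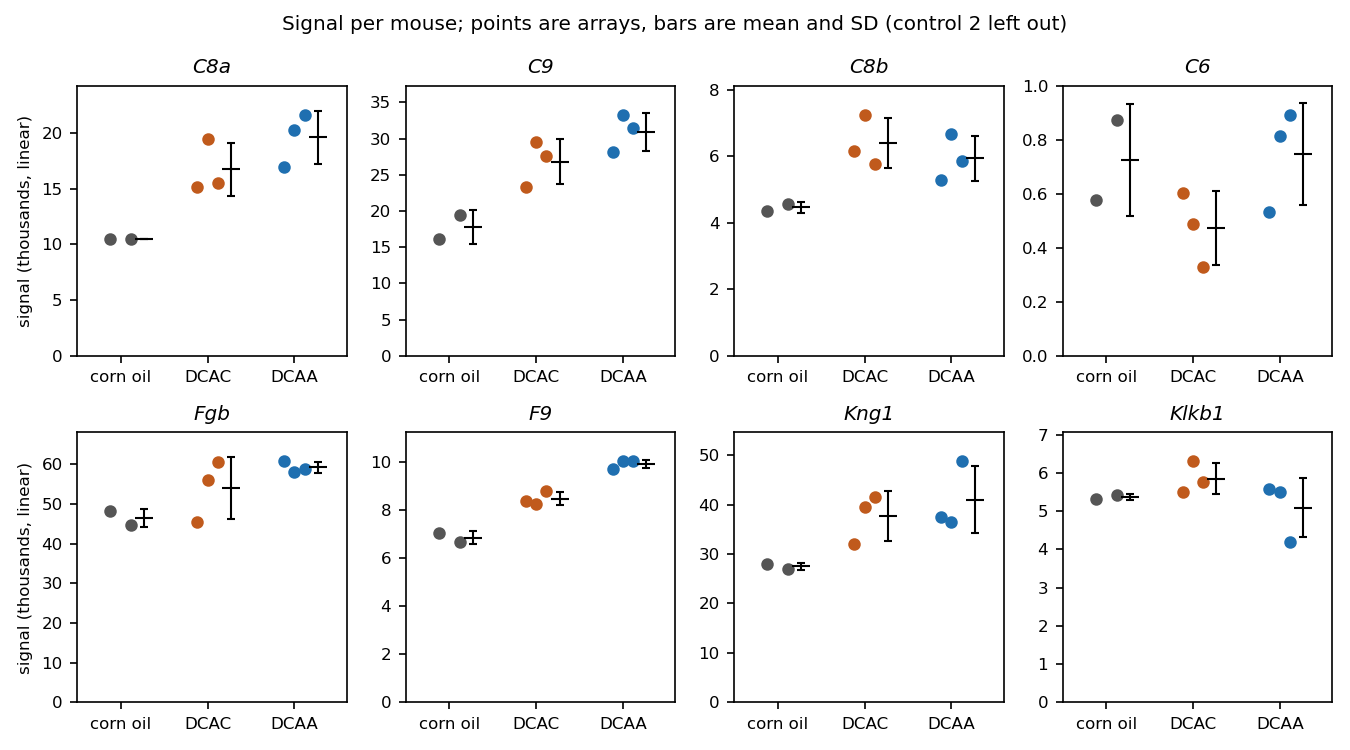
Signal divided by 1000, on a linear axis from 0, of 8 genes in each liver (points), with mean and SD beside each group of 2 corn oil, 3 DCAC and 3 DCAA livers. C8a, C9, C8b, F9 and Kng1 have all treated livers above both controls, while C6, Fgb and Klkb1 have treated livers within or below the range of the controls.

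Among the genes of the lectin pathway, the medians were 0.22 with DCAC and 0.33 with DCAA. Mbl1 encodes a mannose-binding lectin, and its signal was 6262 and 5872 in the controls, 8047, 8774 and 8225 with DCAC, and 6993.5, 10114 and 7231 with DCAA. Its log2 difference was 0.46 and 0.40, and every treated liver was above the controls. Masp1 encodes a protease of the lectin complex, and its gene gives several products by alternative splicing. Its main probe set read 3378 and 4081 in the controls, 4503, 4423 and 4627.5 with DCAC, and 4859, 5034 and 5164.5 with DCAA. The treated livers were all higher, by 0.28 with DCAC and 0.43 with DCAA. Its 5 probe sets differed in sign with DCAC, from -0.30 to 0.28, and the mean over them was 0.0066, so the value depends on the probe set. Masp2 encodes the protease that cuts C4 and C2. It read 2884 and 3046 in the controls, 3717, 3353 and 2900 with DCAC, and 3325, 3272 and 2853 with DCAA. Its log2 difference was 0.16 and 0.08. The 2 probe sets of Masp2 differed in sign for DCAC minus DCAA, at 0.07 and -0.06. Mbl2 was at 0.16 and 0.25.

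The convertase components were represented by C2 and Cfb only. C2 encodes the protease subunit of the classical and lectin convertase. Its signal was 2523 and 2744.5 in the controls, 2798, 3934 and 4719 with DCAC, and 3454, 3022 and 4318.5 with DCAA. Every treated liver was above the controls, but DCAC 1 only narrowly, and the log2 difference was 0.50 with DCAC and 0.44 with DCAA. The probe set of C2 is of a type that can match near-identical sequences. The 3 probe sets of C2 differed in sign for DCAC minus DCAA, from -0.10 to 0.12. Cfb, the protease subunit of the alternative pathway and the neighbour of C2 in the genome, was at 0.27 and 0.25.

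The 4 complement regulators had medians of 0.35 and 0.48. Cfi encodes factor I, which inactivates C3b and C4b. Its signal was 24370 and 24507 in the controls, 26057, 30748 and 36094 with DCAC, and 37324, 36106 and 34452 with DCAA. The DCAA livers lay close together, the DCAC livers did not, and the log2 difference was 0.33 and 0.56. Vtn encodes vitronectin, which blocks insertion of the terminal complex, and read 31591 and 32298 in the controls, 33704, 42514 and 48497 with DCAC and 47871, 44106 and 46858.5 with DCAA. Its log2 difference was 0.36 and 0.53. C4bp, for the C4b-binding protein, was at 0.47 and 0.34, and Serping1, for the C1 inhibitor, at 0.30 and 0.43.

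The 3 fibrinogen chains, whose genes are neighbours in the genome, lay close to each other. Their log2 differences ran from 0.14 to 0.21 with DCAC and from 0.25 to 0.35 with DCAA. Fgb read 48160 and 44848 in the controls, 45435.5, 56160.5 and 60630 with DCAC, and 60761, 58218 and 58832 with DCAA. DCAC 1 lay between the controls, and for each of the 3 chains the DCAC and control livers overlapped. With quantile normalization the sign of Fgb turned, to -0.02 with DCAC and -0.06 with DCAA. The probe sets of 17 of the 36 genes were among the brightest 1% on all 8 arrays.

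In the tissue factor and common pathway, the medians over 6 genes were 0.24 and 0.30. F9 encodes factor IX, the protease lacking in haemophilia B. Its signal was 7045 and 6670 in the controls, 8394, 8276 and 8810 with DCAC, and 9735.5, 10041 and 10039 with DCAA. The 3 groups did not overlap, and the log2 difference was 0.31 with DCAC and 0.54 with DCAA (SE 0.13; limma adjusted p = 0.163). F7, the factor that binds tissue factor, was at 0.44 and 0.37. F10 encodes factor X, next to F7, and its signal was 16924 and 15725 in the controls, 16201, 16452 and 21346 with DCAC and 20277, 18157 and 17043 with DCAA. Its log2 difference was 0.13 and 0.18, and 1 of its 3 probe sets had the opposite sign. F5, F2 (prothrombin) and F13b ranged from 0.09 to 0.28 with DCAC and from 0.04 to 0.33 with DCAA.

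In the contact system, the medians over 4 genes were 0.20 and 0.30, and Kng1 stood highest with both compounds. Kng1 encodes kininogen, the source of bradykinin, and read 28041 and 26926 in the controls, 31962, 39435 and 41612 with DCAC and 37528, 36533 and 48720 with DCAA. All treated livers were above the controls, and the log2 difference was 0.45 and 0.56. Klkb1 encodes plasma prekallikrein, which releases bradykinin from kininogen. Its signal was 5326 and 5430 in the controls, 5502, 6303 and 5763 with DCAC, and 5577, 5507 and 4197.5 with DCAA. DCAA 3 lay below the other DCAA livers and both controls, and the log2 difference was 0.12 with DCAC and -0.09 with DCAA. Without DCAA 3 the latter was 0.04. F11, the neighbour of Klkb1, was at 0.07 and 0.16, and F12 at 0.28 and 0.44.

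The anticoagulants had medians of 0.29 and 0.24. Serpinc1 encodes antithrombin, and its signal was 32804 and 38212 in the controls, 38973, 46297 and 51303 with DCAC, and 54134, 49661 and 48492 with DCAA. Its log2 difference was 0.35 and 0.52. Proc encodes protein C, which inactivates factors V and VIII. It read 13573 and 14014 in the controls, 12715, 14056 and 18428 with DCAC, and 17643, 16028 and 17788 with DCAA. The DCAC livers straddled the controls, and the log2 difference was 0.11 with DCAC and 0.31 with DCAA. Without DCAC 3 the DCAC value was -0.04. Serpind1 (heparin cofactor II) and Pros1 (protein S) were at 0.23 and 0.35 with DCAC and at 0.08 and 0.16 with DCAA.

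In fibrinolysis, all treated livers were above both controls for each of the 3 genes, as for 19 of the 36 and 5.18% of all probe sets. Plg encodes plasminogen, the precursor of plasmin, and read 38056 and 37084 in the controls, 39037, 44392 and 56017 with DCAC and 55051, 52640 and 53889 with DCAA. Its log2 difference was 0.29 and 0.52. Hrg encodes histidine-rich glycoprotein, which binds plasminogen. Its signal was 25370 and 25447 in the controls, 26985, 30012 and 38235 with DCAC, and 36675, 34781 and 35383.5 with DCAA, a log2 difference of 0.31 and 0.49. For both genes the DCAC livers covered a wider range than the DCAA livers, and DCAC 3, of high 3′/5′ ratio, was the highest DCAC liver. With the class of 3′/5′ ratio as a block, the DCAA difference was 0.091 for Plg and 0.061 for Hrg. The part of the ratio in these differences was not tested. Serpinf2, which encodes the plasmin inhibitor, was at 0.27 and 0.21.

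**Figure D4:**
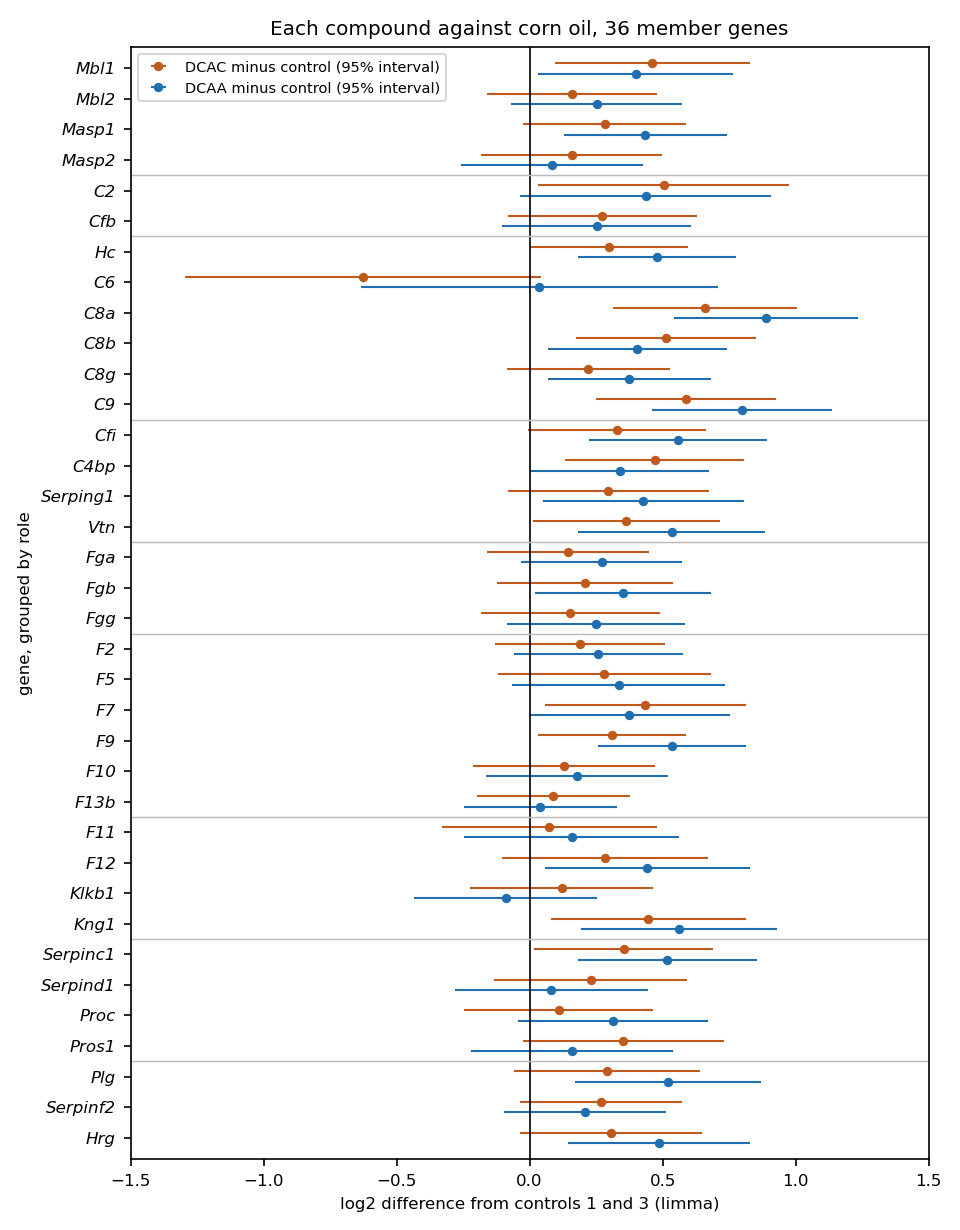
Log2 difference from controls 1 and 3 of the 36 genes with DCAC and with DCAA (limma estimates, lines are 95% intervals), genes grouped by role. C8a and C9 reach furthest to the right, and C6 with DCAC reaches furthest to the left. C6 with DCAC and Klkb1 with DCAA have the only estimates below 0.

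The compounds were compared directly at the same dose and time. No gene of the 36 differed between them by the test (limma smallest adjusted p = 0.511, for C6), where 0.00408% of all probe sets were called lower with DCAC and 0% higher. At an unadjusted p under 0.05, only C6 was lower (4.58% of all probe sets) and none was higher (4.7%). The median log2 difference, DCAC minus DCAA, was -0.11, with 24 genes below 0 and 12 above (48.2% of all probe sets above 0), and the median of all probe sets was -0.01. The median 95% interval reached 0.31 to either side of its estimate, so differences of that size are not excluded for a typical gene. C6 had the largest difference, at -0.66 (-1.26 to -0.07), and the livers overlapped. In Masp1, Fga and F9 all DCAC livers were below all DCAA livers, where 7.63% of all probe sets were, and in no gene were they all above (6.32%). These counts depend on single arrays. Without DCAC 3 they were 13 lower and 4 higher, and 6 were lower without DCAC 2, DCAA 1 or DCAA 3, where a smaller group makes such separation easier. With a common median they were 0 lower and 2 higher. The shares of all probe sets were not counted in these alternatives. For F9 the difference was -0.23 (-0.48 to 0.02) and for Masp1 -0.15 (-0.43 to 0.12), or -0.39 as the mean of its 5 probe sets. Klkb1 had the largest difference in the other direction, at 0.21 (-0.10 to 0.52). Cfi, Plg and Proc were at -0.23, -0.23 and -0.20, C2 at 0.07 and Fgb at -0.14. The direction of the median depends on the processing. With all arrays set to a common median it was 0.08, with all probe sets at 0.17. With the class of 3′/5′ ratio as a block, which compares DCAC 3 with the DCAA livers, it was 0.025, and Cfi (0.0061), Plg (0.057), Proc (0.11) and Fgb (0.033) changed sign.

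Other complement genes lay on both sides of the controls, with 10 of 24 above 0 with DCAC and 13 with DCAA. Of these 24 genes tested, from 32 listed, none passed the test with either compound or with the treated livers pooled, and their medians were -0.15 with DCAC and 0.02 with DCAA. The furthest above the controls, with the 6 treated livers pooled, were Cr2 (0.56), a complement receptor of B cells, Cfhr2 (0.48), related to factor H, and the ficolin gene Fcnb (0.43). The signal of Cr2 was low, at 97.0 and 98.8 in the controls and 95.9 to 231.3 in the treated livers. Cfhr2 read 1522 and 1556 in the controls, 1846, 1789 and 2150 with DCAC, and 2388, 2142 and 2686 with DCAA, so no treated liver overlapped the controls. The furthest below were Cfp (-0.76), which encodes properdin, and C1qa (-0.74) and C1qc (-0.58), which encode chains of C1q and are known from macrophages. C1qa read 1151 and 5545 in the controls and 1063 to 2027 in the treated livers. Cfp read 433 and 2382 in the controls and 390.5 to 691 in the treated livers. C1qc read 948 and 4140 in the controls and 981 to 1645 in the treated livers. Each of these differences thus rests on control 3. The summed signal of 11 Kupffer cell and macrophage markers was 10493.9 to 37104.9 in the controls, 10784.1 to 17093.7 with DCAC and 13937.8 to 15600.5 with DCAA. That sum includes C1qa, C1qb, C1qc and Vsig4, which are also in this complement list, so it is not separate from their values. The part of these cells was not tested.

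Of 18 other coagulation and fibrinolysis genes tested, from 30 listed, none passed either. The log2 difference was above 0 for 13 with DCAC and 14 with DCAA, and their medians were 0.15 and 0.28. Fgl1, a fibrinogen-like protein of hepatocytes, was the furthest above among those with a strong signal, at 0.85 with the treated livers pooled (limma adjusted p = 0.0919). It read 18662 and 14735 in the controls, 25844, 34050 and 26259 with DCAC, and 27354, 33411 and 33516 with DCAA, with no overlap. Thbd (thrombomodulin) and F8 were at 0.99 and 0.80 from low signals, with control 1 at 47.8 and 62.1 and control 3 at 202.2 and 216.0. The furthest below were A2m (-1.11), a protease inhibitor, Plat (-0.80), the tissue plasminogen activator, and Habp2 (-0.20), a plasma protease. A2m and Plat had low signals as well, at 67.2 to 418.2 and 73.4 to 300 over the 8 arrays.

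Acute phase genes and hepatocyte markers were measured on the same arrays for scale. Of 16 acute phase genes, 4 passed the test with DCAC (Saa1, Saa2, Lcn2 and Orm2) and 6 with DCAA (the same and Apcs and Lrg1), all higher. Saa1, which encodes serum amyloid A, rose by 4.08 on the log2 scale with DCAC (limma adjusted p = 0.00308) and by 3.70 with DCAA (limma adjusted p = 0.00586). The medians of this list were 0.81 and 0.91, against 0.28 and 0.36 for the 36 complement and coagulation genes. Fgl1 counts both in this list and among the other coagulation and fibrinolysis genes, so these lists are not separate. The 12 hepatocyte markers tested had medians of 0.18 and 0.35, none passed, and their summed signal was 451130.7 to 451302.7 in the controls, 428893.9 to 575693.9 with DCAC and 544400.5 to 613532 with DCAA. Markers of blood cells were summed in the same way. The 7 neutrophil genes tested had medians of 0.78 and 1.03, and 1 of them, the granule protease gene Prtn3, passed with the treated livers pooled (2.73 higher; limma adjusted p = 0.0150). Prtn3 read 222.2 on control 1 and only 45 on control 3, and 590.2 to 784.4 in the treated livers, so its size leans on a low control value. All 9 neutrophil genes with a probe set, tested or not, summed to 1322.5 to 1744.7 in the controls, 2688.7 to 2925.4 with DCAC and 1881 to 4357.5 with DCAA. The 4 T and NK cell genes tested had medians of -1.44 and -1.03, and none passed. The 7 T and NK cell genes with a probe set summed to 1724 to 2738.3 in the controls, 1131.4 to 1166.7 with DCAC and 1026 to 1214.6 with DCAA. The part of these marker signals in the values of the 36 genes was not tested.

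On control 2 the complement and coagulation genes were far lower than on the other controls, but not evenly so. The median gene had 1.75% of its mean signal on controls 1 and 3, and 8 genes (Fgb, Plg, C4bp, F9, F12, C8b, F11 and C6) were under the floor of the array. These 8 have no order among them, and for Fgb the floor allows at most 0.129%. Of the 28 genes above the floor, 8 had less than 1%. At the other end were C2, with a signal of 1932 (73.4% of the control mean), F13b (46.8%), Cfb (27.9%), Pros1 (22.4%), Kng1 (18.0%), Serpinf2 (13.1%) and Proc (12.5%). All other genes were below 10%. These shares are those of the brightest probe set of each gene and can differ in others. Another probe set of Kng1 read 316.1 on control 2, against 16553.8 and 15799.1 on controls 1 and 3. Another of Masp1, a gene below 10%, read 243.3, against 577 and 505.5.

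**Figure D5:**
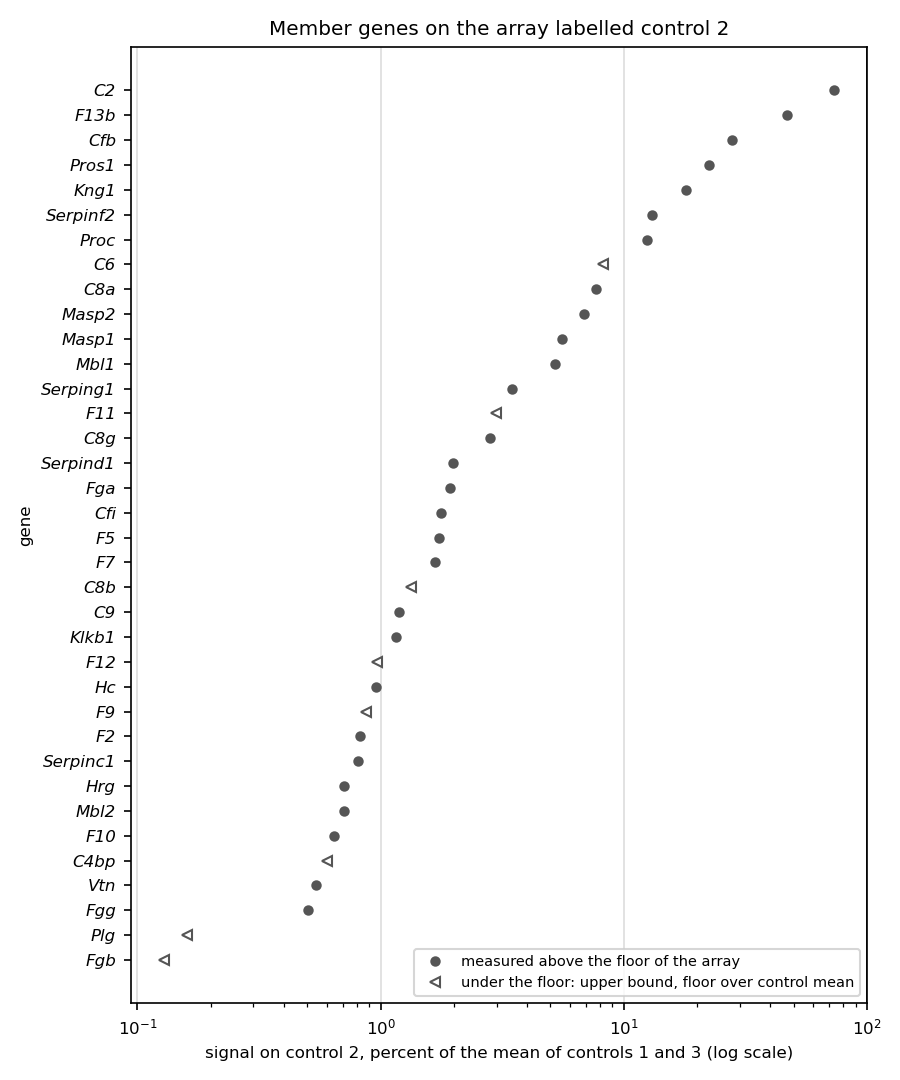
Signal on the array labelled control 2 as a percentage of the mean of controls 1 and 3 (log axis) for the 36 genes. Filled points are genes above the floor of that array, and open triangles are upper bounds for the 8 genes under it. Of the 36, 29 lie under 10%, and C2 is highest at 73.4%.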

How the data were processed

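Total RNA of 9 livers was labelled and hybridised to 1 Affymetrix-type array each, per the labels. The authors deposited linear signal intensity per probe set, made with GCOS per the submitters' processing notes (version not given in the sources used here), and the 2% trimmed mean of every deposited column is 500. No genome build is given for the array data in the sources used here. Gene names come from the platform annotation: 34945 probe sets carry 1 symbol, 932 several and 9160 none.

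Values under each array's 25th percentile were set to it and log2 was taken. The 24531 probe sets (12293 genes) above the array median on at least 3 of 8 arrays were tested. limma 3.58.1 (R 4.3.3; lmFit, eBayes with trend) fitted DCAC, DCAA and control together, and a second fit set all 6 treated mice against 2 controls. P-values were adjusted by Benjamini-Hochberg over all probe sets, with 0.05 as threshold. The script was tested on simulated data. Figures were drawn with Python 3.11.15.

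The gene list, its roles and the other lists were chosen with earlier results of these data known. Genes given on every array were the largest in each role in the pooled and the DCAC minus DCAA comparison, those with an unadjusted p under 0.01, the ends on control 2 and those whose probe sets differ in sign. Of the other lists, called genes and up to 3 per direction were named. None of the 36 pairs of arrays held identical values. Same-numbered mice did not deviate together (r -0.04 to 0.03 over 7 pairs), so numbers were not used as pairs. Alternatives covered scaling, floor, filter, probe sets, moderation, weights, blocks and each array left out.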

Additional observations from a re-analysis of the deposited data

Results flagged for a closer look

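On control 2, the array left out of the comparisons, the summed signal of the nephron list was 175917.9, above the 2055.9 to 2400.5 of the other controls. The summed signal of the megakaryocyte and platelet list there was 911.0, just above the 823.3 to 903.7 of the other controls and within the 823.3 to 1293.2 of the other 8 arrays. Groups of 3 or fewer arrays were too small to look for single outlying samples.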

How the results depend on the processing

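The 36 genes kept a positive median in the DCAC, DCAA and pooled comparisons under every alternative run. With all 9 arrays the medians were 2.25 (DCAC), 2.22 (DCAA) and 2.21 (pooled), and C6 with DCAC was 0.56 and Klkb1 with DCAA 2.06. With quantile normalization the medians were 0.12, 0.18 and 0.13, and -0.0088 for DCAC minus DCAA; Fgb was -0.022, -0.057, -0.039 and 0.035 in these 4 comparisons, and with DCAC Proc was -0.051 and F10 -0.057. A common median moved the median of all probe sets to -0.12 with DCAA and 0.17 for DCAC minus DCAA, and that of the 36 genes to 0.25 and 0.080. Their distance from all probe sets was 0.37 and -0.09, as without it. C6 (-0.078) and Masp2 (-0.031) with DCAA and Masp1 (0.035) and Fgb (0.044) for DCAC minus DCAA then turned sign, and 16 genes had all DCAA livers above both controls. For that count the share of all probe sets was not taken. Without a filter the median of all probe sets was 0.14 with DCAA and -0.16 for DCAC minus DCAA.

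Blocking on the class of 3′/5′ ratio gave medians of 0.19 (DCAA), 0.20 (pooled) and 0.025 (DCAC minus DCAA). Proc was -0.045 with DCAC; C2 (-0.073), Proc (-0.15) and F10 (-0.21) turned with DCAA, and Cfi (0.0061), Fgb (0.033), Proc (0.11) and Plg (0.057) for DCAC minus DCAA. Array weights called 2 genes, C8a and C9, with DCAA and 2 in the pooled comparison. Over all probe sets they called 141 with DCAA and 62 pooled, against 20 and 18 without weights. With the replicate block, 0 of the 36 genes were called in every comparison, as without it, and C6 with DCAA was -0.026. Over all probe sets, this block called 7 (DCAC), 17 (DCAA), 1 (DCAC minus DCAA) and 7 (pooled). The main fit called 8, 20, 1 and 18.

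Leaving out 1 array gave medians of 0.20 to 0.35 (DCAC), 0.31 to 0.41 (DCAA), 0.28 to 0.38 (pooled) and -0.17 to -0.0090 (DCAC minus DCAA, nearest 0 without DCAC 1), and 0 to 1 genes called with DCAA. Over all probe sets, 3 to 87 were called with DCAA in these fits. Proc with DCAC ran from -0.045 to 0.22, C6 with DCAA from -0.26 to 0.33 (below 0 without control 1, DCAA 2 or DCAA 3), Klkb1 with DCAA from -0.16 to 0.043 and C2 for DCAC minus DCAA from -0.10 to 0.28 (below 0 without DCAC 3 or DCAA 2). Where no cause follows from how an alternative was built, the cause was not tested. With 2 controls and 3 livers per compound, the median 95% interval of a gene reached 0.34 to either side of its difference from control.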
